A study of Mus musculus with 12 samples.

Results

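The genes described here are 9 members of the type I interferon response, namely the receptor chains Ifnar1 and Ifnar2, the kinases Jak1 and Tyk2, the transcription factor Stat2, and the interferon regulatory factors Irf1, Irf3, Irf7 and Irf9. They were picked by name as members of 1 pathway, with earlier results of these data known, from 46763 distinct gene names in 2 expression tables, and all 9 were listed in both. The RNA came from a spontaneously immortalized culture of mouse embryonic fibroblasts (MEF cells), of the C57BL/6 strain and of embryonic day 13.5. The first table compared Control, MEF cells carrying an empty retroviral vector, with 2MUT, MEF cells stably expressing a cancer-associated mutant of human IDH2 from the same kind of vector. Both were populations selected with puromycin. The second compared 2-HG(-), cells given the solvent DMSO for 24 h, with 2-HG(+), cells given 300 μM of membrane-permeant 2-hydroxyglutarate for 24 h. 2-HG is the metabolite that mutant IDH enzymes make from α-ketoglutarate. The comparisons ask how expression differs with the mutant enzyme and with its product in the same kind of cell. No cells expressing wild-type human IDH2 were among the samples. An effect of the mutation and an effect of added human IDH2 therefore cannot be told apart.

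Type I interferons bind a receptor made of Ifnar1 and Ifnar2, whose cytoplasmic tails carry the kinases Tyk2 and Jak1. The kinases phosphorylate Stat2, which works with Irf9 in a complex that enters the nucleus and switches on antiviral genes through a DNA element called ISRE. Irf3 and Irf7 are activated by sensors of viral nucleic acids and switch on the interferon genes themselves, Irf7 and Irf9 are also targets of the response, and Irf1 is induced by gamma interferon and drives genes of antigen presentation. In fibroblasts a low level of this signalling is known to run without infection.

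Each group had 3 libraries. The libraries held 6472439 to 7313602 reads in the first table and 14959318 to 18363768 in the second, and values are given as reads per 1000000 reads counted on genes (RPM). Nothing in the labels says that the 3 libraries of a group came from separate cultures, so the p-values measure the spread between these libraries only. A limit of 3 reads corresponded to 0.41 to 0.464 RPM in the first table and to 0.163 to 0.201 RPM in the second, and these floors cover counting error only. Genes were read from short amplified targets, and how many served each gene is not given in the sources used here. The first table lists 43280 entries, of which 24696 were at 0 in all 6 libraries. The second lists 23930, and 20443 gene names are in both. Whether a gene had the same target in both tables is not known. The tables were also normalised apart, so levels are compared between groups of a table and never between genes. The third Control library stood apart, with 64 of 7859 genes of at least 10 RPM more than 4-fold away from both other Control libraries, against 0 to 10 genes in each other library. Fibroblast markers were present in every library, with Col1a1 at 4907 to 6337 RPM in the first table and 5859 to 8870 RPM in the second, whereas Lum was at or below 1.57 RPM throughout, S100a4 was at or below 0.293 RPM in the first table and Thy1 was at 2.61 to 6.88 RPM in the second table. The libraries were made from bulk RNA, in which fewer cells expressing a gene and less RNA per cell cannot be told apart.

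The genes lie on 7 mouse chromosomes (GRCm38, GENCODE), and all 9 were matched to 11 promoter windows of RefSeq (GRCm38.p6). Of each window the 250 bases before the RefSeq start were searched. Not all of these bases lie upstream of the gene in GENCODE. The Irf9 windows and the second Irf1 window lie inside the gene, and those of Jak1 and Irf7 reach into untranslated regions of the same genes. The Irf3 window overlaps an untranslated region of Bcl2l12. The core of the ISRE, GAAA followed by any 2 bases and GAAA again, on either strand, was found in 1 of the 11 windows, that of Stat2, against 978 of all 32851 mouse windows (2.98%). The GAS element bound by Stat dimers, TTCNNNGAA on either strand (the letters read the same on both), was found in 2 of the 11, those of Irf1 and Ifnar2, against 2306 of all windows (7.02%). These are matches of letters and say nothing of binding. Below are the 3 windows with a match, the matched letters in capitals, and the Irf7 sequence, which held neither and is shown because Irf7 changed most.
Stat2: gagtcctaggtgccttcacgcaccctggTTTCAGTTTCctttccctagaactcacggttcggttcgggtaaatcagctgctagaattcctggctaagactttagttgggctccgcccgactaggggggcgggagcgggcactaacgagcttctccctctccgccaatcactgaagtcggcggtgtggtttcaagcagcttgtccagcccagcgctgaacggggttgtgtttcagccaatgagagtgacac
Irf1: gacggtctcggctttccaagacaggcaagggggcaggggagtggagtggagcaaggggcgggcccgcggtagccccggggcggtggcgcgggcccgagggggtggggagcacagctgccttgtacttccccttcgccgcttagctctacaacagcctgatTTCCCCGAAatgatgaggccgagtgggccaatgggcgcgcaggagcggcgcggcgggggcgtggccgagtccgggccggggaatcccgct
Ifnar2: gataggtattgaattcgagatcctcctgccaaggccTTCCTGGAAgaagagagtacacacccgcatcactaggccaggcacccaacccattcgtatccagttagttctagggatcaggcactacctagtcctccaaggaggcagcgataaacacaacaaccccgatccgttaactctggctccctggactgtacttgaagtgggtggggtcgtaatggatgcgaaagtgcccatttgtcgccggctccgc
Irf7: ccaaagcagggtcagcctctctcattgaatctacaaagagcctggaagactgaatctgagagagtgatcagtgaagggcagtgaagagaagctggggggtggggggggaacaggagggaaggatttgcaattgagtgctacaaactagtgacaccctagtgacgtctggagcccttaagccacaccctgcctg
The Stat2 sequence is chr10:128270248-128270497 on the plus strand, and the match lies on the reverse strand 222 to 213 bases before the RefSeq start. That start lies upstream of the GENCODE start at 128270559. The Irf1 sequence is chr11:53769764-53770013 on the plus strand, with the match 90 to 82 bases before the start. The Ifnar2 sequence is chr16:91372533-91372782 on the plus strand, with the match 214 to 206 bases before the start. The Irf7 sequence is chr7:141266482-141266674 on the minus strand and was shortened to the 193 bases before the outermost annotated start.

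In 2MUT cells 1 of the 9 genes, Ifnar1, was higher than in Control cells, 2 were lower, Irf1 and Ifnar2, and 6 did not pass an adjusted p of 0.05 in either direction. Of all 11065 genes tested in this comparison 33.8% passed, 16.5% higher and 17.3% lower, so that 3 of 9 is close to the share among all genes. The median log2 fold change of the 9 was -0.17, against 0.0081 over all genes tested. With 2-HG, 6 of the 9 genes were lower, namely Irf7, Irf9, Stat2, Irf1, Ifnar2 and Ifnar1, and 0 were higher by limma, also at an unadjusted p under 0.05, by edgeR and by DESeq2. Of all 10384 genes tested 32.8% passed, 16.7% lower and 16.1% higher. The median log2 fold change of the 9 was -0.52, against -0.021 over all genes tested. The 2 comparisons share no library.

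**Figure D1:**
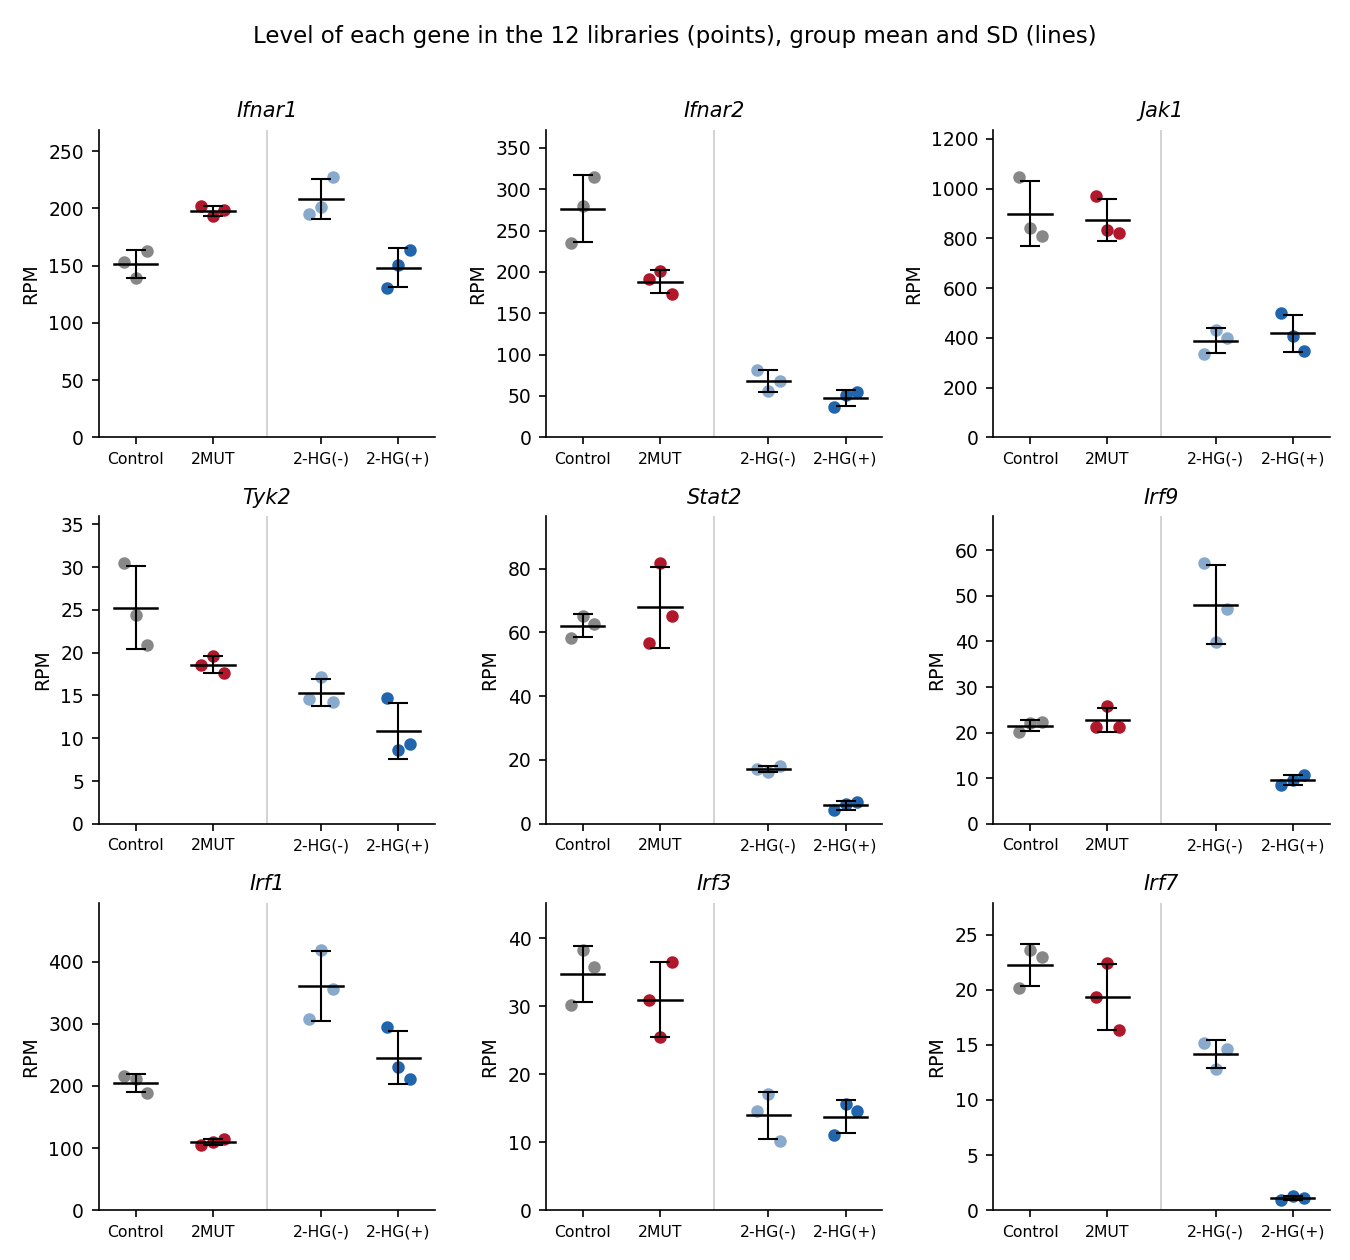
RPM of each of the 9 genes (vertical axes, starting at 0) in the 12 libraries, with 3 points per group and lines for the group mean and SD. The grey line separates the 2 tables, which were normalised separately. The 3 points of 2-HG(+) for Irf7 lie at 0.926 to 1.32 RPM, below the 12.8 to 15.2 RPM of 2-HG(-), and those of 2MUT for Irf1 lie at 106 to 115 RPM, below the 188 to 215 RPM of Control.

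Among the receptor chains, Ifnar1 (chromosome 16, 91485238 to 91507441) was at 153, 139 and 163 RPM in the Control libraries and at 202, 193 and 199 RPM in the 2MUT libraries. The groups did not overlap, as in 23.5% of all genes tested for this direction, and the mean rose from 152 ± 12.2 to 198 ± 4.38 RPM (SD, n = 3; log2 fold change 0.38, SE 0.097, adjusted p = 0.01). In the second table Ifnar1 was at 195, 202 and 228 RPM in 2-HG(-) and at 131, 150.3 and 164 RPM in 2-HG(+). The groups again did not overlap, but with the treated libraries below, as in 24.1% of all genes tested in that table. The mean of Ifnar1 fell from 208 ± 17.3 to 148 ± 16.7 RPM (log2 fold change -0.49, SE 0.11, adjusted p = 0.0088). The direction of the change was thus opposite, and the difference between the log2 changes, 0.87 (SE 0.15, 95% interval 0.56 to 1.19), passed the test over the 12 libraries (adjusted p = 3.9e-04).

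Ifnar2, the chain that binds interferon with high affinity (chromosome 16, 91372783 to 91405589), was at 234, 279.9 and 315 RPM in Control and at 191, 201 and 173 RPM in 2MUT. All 2MUT libraries were below all Control libraries, as in 24% of all genes tested, and the mean fell from 276 ± 40.4 to 188 ± 14.4 RPM (log2 fold change -0.54, SE 0.12, adjusted p = 0.0048). In the second table it was at 81.6, 55.5 and 68.3 RPM in 2-HG(-) and at 36.6, 51.3 and 54.8 RPM in 2-HG(+). The highest treated and the lowest untreated library nearly met, 54.8 against 55.5 RPM, and the fall from 68.5 ± 13.1 to 47.5 ± 9.67 RPM passed the threshold narrowly (log2 fold change -0.52, SE 0.18, adjusted p = 0.0496). It no longer passed without the first (log2 fold change -0.39, adjusted p = 0.16) or the third (-0.51, 0.13) 2-HG(-) library. Nor did it pass without the first (-0.35, 0.12) or the second (-0.58, 0.062) 2-HG(+) library. The changes of Ifnar2 in the 2 comparisons differed by -0.024 (95% interval -0.53 to 0.48, adjusted p = 0.95), an interval that leaves room for a difference in either direction. The 2 chains of 1 receptor therefore changed in opposite directions in 2MUT cells, and with 2-HG both were lower, Ifnar2 only narrowly past the threshold.

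The kinases showed no change past the threshold. Jak1 (chromosome 4, 101152367 to 101265282), which serves many cytokine receptors besides this one, was at 1048, 840.2 and 809 RPM in Control and at 969, 832 and 820.0 RPM in 2MUT. The groups overlapped fully, at a log2 fold change of -0.036 (95% interval -0.28 to 0.21, adjusted p = 0.83). With 2-HG it was at 335, 432 and 399 RPM in 2-HG(-) and at 499, 407 and 349 RPM in 2-HG(+), again overlapping, at 0.098 (95% interval -0.23 to 0.42, adjusted p = 0.64).

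Tyk2 (chromosome 9, 21104068 to 21131243) was at 30.5, 24.4 and 20.9 RPM in Control and at 18.5, 19.6 and 17.6 RPM in 2MUT. The 2MUT libraries lay below all Control libraries, but the log2 fold change of -0.41 (SE 0.16, 95% interval -0.77 to -0.049) did not pass after adjustment (adjusted p = 0.076). Without the third Control library, the one that stood apart, it was -0.53 and passed (adjusted p = 0.028), and without the first Control library it was -0.27 (adjusted p = 0.23). In the second table Tyk2 was at 14.6, 17.1 and 14.2 RPM in 2-HG(-) and at 14.7, 8.6 and 9.28 RPM in 2-HG(+), with the first treated library among the untreated ones. The log2 fold change of -0.49 (SE 0.19) had an adjusted p of 0.076, and without that library it was -0.71 and passed (adjusted p = 0.005). Without each other library it lay between -0.54 and -0.36 and did not pass.

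Stat2 and Irf9, which act together in the interferon-activated complex, differed most between the comparisons together with Irf7. Stat2 (chromosome 10, 128270559 to 128292849), whose promoter window above held the ISRE core, was at 58.1, 65.2 and 62.8 RPM in Control and at 56.7, 81.7 and 65.1 RPM in 2MUT. The 2MUT libraries spanned the Control libraries, at a log2 fold change of 0.11 (95% interval -0.20 to 0.42, adjusted p = 0.57). In the second table it was at 17.2, 16.4 and 18 RPM in 2-HG(-) and at 4.16, 6.31 and 6.93 RPM in 2-HG(+). The groups were far apart, and the mean fell 2.96-fold, from 17.2 ± 0.817 to 5.8 ± 1.45 RPM (log2 fold change -1.44, SE 0.17, adjusted p = 2.6e-04). The difference between the log2 changes was 1.55 (SE 0.24, 95% interval 1.05 to 2.06, adjusted p = 1.6e-04).

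Irf9 (chromosome 14, 55603571 to 55610030), the DNA-binding subunit of that complex, was at 20.1, 22.1 and 22.3 RPM in Control and at 21.3, 25.9 and 21.3 RPM in 2MUT, where the groups overlapped (log2 fold change 0.08, 95% interval -0.24 to 0.40, adjusted p = 0.7). It was at 57.2, 39.9 and 47.1 RPM in 2-HG(-) and at 8.59, 9.56 and 10.7 RPM in 2-HG(+). Every treated library was below every untreated one, and the mean fell 4.99-fold, from 48 ± 8.68 to 9.62 ± 1.06 RPM (log2 fold change -2.20, SE 0.15, adjusted p = 1.0e-05). Only 0.433% of the genes tested had a lower log2 fold change. The changes differed by 2.28 (SE 0.21, 95% interval 1.83 to 2.72, adjusted p = 1.9e-06). Rnf31, which overlaps Irf9 on the same strand, did not pass with 2-HG (46.6 ± 4.67 and 40 ± 1.92 RPM, log2 fold change -0.21, adjusted p = 0.18), and fell by 0.97 on the log2 scale in 2MUT (adjusted p = 0.0014).

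Among the interferon regulatory factors, Irf7 (chromosome 7, 141262706 to 141266481), the factor that amplifies interferon production, showed the largest change of the 9 genes. It was at 20.1, 23.6 and 23 RPM in Control and at 19.3, 22.4 and 16.4 RPM in 2MUT, and the groups overlapped (log2 fold change -0.20, 95% interval -0.55 to 0.15, adjusted p = 0.36). It was at 15.2, 12.8 and 14.6 RPM in 2-HG(-), from 279, 191 and 243 reads, and at 0.926, 1.32 and 1.11 RPM in 2-HG(+), from 14, 22 and 17 reads. All treated libraries were thus above the 3-read floor and far below the untreated ones. The mean fell 12.7-fold, from 14.2 ± 1.26 to 1.12 ± 0.199 RPM. On the log2(RPM + 1) scale, which understates changes of low genes, the fold change was -2.84 (SE 0.14, adjusted p = 1.9e-06), and 0.144% of the genes tested were lower. With edgeR on the recovered reads the log2 fold change was -3.64. The changes in the 2 comparisons differed by 2.64 (SE 0.21, 95% interval 2.19 to 3.10, adjusted p = 5.9e-07). Phrf1, a gene that overlaps Irf7 on the opposite strand, was at 18.8 ± 2.43 and 18.8 ± 1.74 RPM in the second table (adjusted p = 0.98) and rose by 0.67 on the log2 scale in 2MUT (adjusted p = 0.0034). Whether strand was used in the counting, and where the amplified targets lie, is not given in the sources used here, so how reads in the shared stretches were assigned is not known.

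Irf1 (chromosome 11, 53770014 to 53778374) was the gene with the clearest change in 2MUT cells. It was at 215, 211 and 188 RPM in Control and at 106, 110.4 and 115 RPM in 2MUT. The groups did not overlap, and the mean fell 1.86-fold, from 205 ± 14.5 to 110.3 ± 4.76 RPM (log2 fold change -0.89, SE 0.098, adjusted p = 7.1e-05). With 2-HG, Irf1 was at 308, 419 and 355 RPM in 2-HG(-) and at 294, 231 and 212 RPM in 2-HG(+). The treated libraries were again lower, with a narrow gap of 294 against 308 RPM, and the mean fell from 361 ± 56.1 to 246 ± 43.1 RPM (log2 fold change -0.56, SE 0.15, adjusted p = 0.018). This second fall did not pass without the second (log2 fold change -0.44, adjusted p = 0.053) or the third (-0.56, 0.058) 2-HG(-) library. Nor did it pass without the second (-0.52, 0.054) or the third (-0.46, 0.058) 2-HG(+) library. The difference between the changes was -0.33 (95% interval -0.73 to 0.07, adjusted p = 0.18).

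Irf3 (chromosome 7, 44997648 to 45002848), the constitutively expressed factor that starts interferon production, overlapped between groups in both tables. It was at 30.2, 38.3 and 35.7 RPM in Control and at 30.9, 25.5 and 36.5 RPM in 2MUT (log2 fold change -0.17, 95% interval -0.52 to 0.18, adjusted p = 0.44). In the second table it was at 14.5, 17.1 and 10.2 RPM in 2-HG(-) and at 11, 15.6 and 14.6 RPM in 2-HG(+) (log2 fold change -0.0053, 95% interval -0.45 to 0.44, adjusted p = 0.99). Its opposite-strand neighbour Bcl2l12 passed in neither comparison (adjusted p = 0.5 and 0.71).

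**Figure D2:**
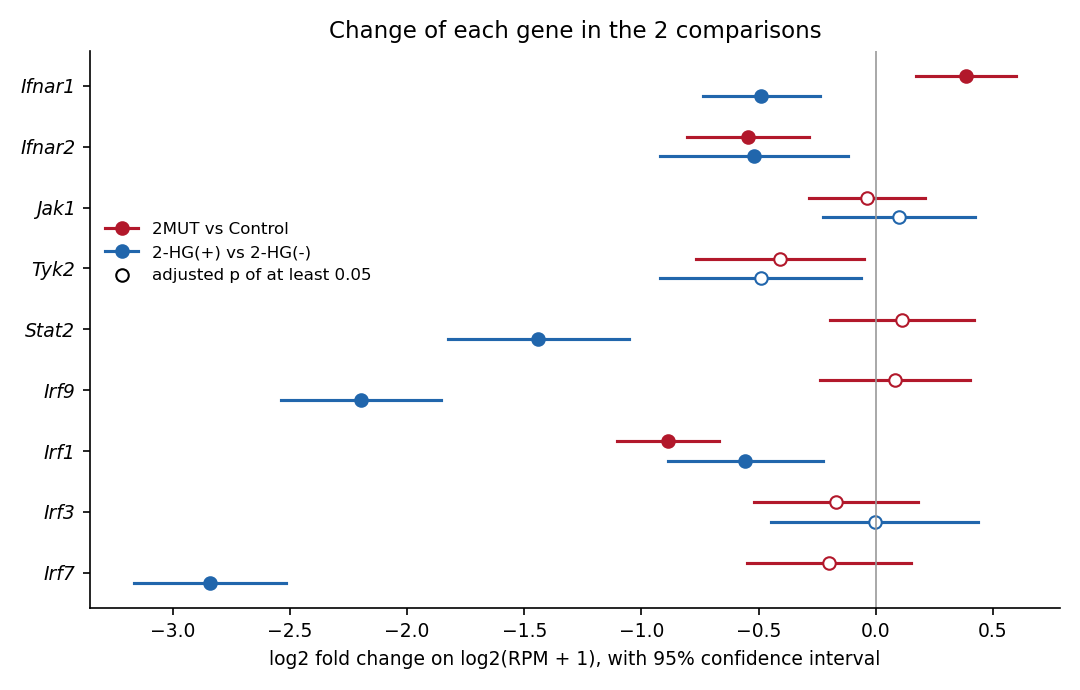
Log2 fold change on log2(RPM + 1) (horizontal axis) of each gene, 2MUT against Control in red and 2-HG(+) against 2-HG(-) in blue, with 95% confidence intervals. Filled points passed an adjusted p of 0.05. Stat2, Irf9 and Irf7 lie near 0 in red and at -1.44, -2.20 and -2.84 in blue.

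The test of the difference between the comparisons, run for 9610 genes tested in both tables, therefore passed for 4 of the 9 genes, Ifnar1, Stat2, Irf9 and Irf7, all with the more positive change in 2MUT. Among all genes tested in this way 39.4% passed and 19.9% passed in that direction. The 4 calls held without each of the 12 libraries in turn. Irf1, Ifnar1 and Ifnar2 passed in both comparisons, Ifnar1 in opposite directions, and Jak1, Tyk2 and Irf3 in neither.

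**Figure D3:**
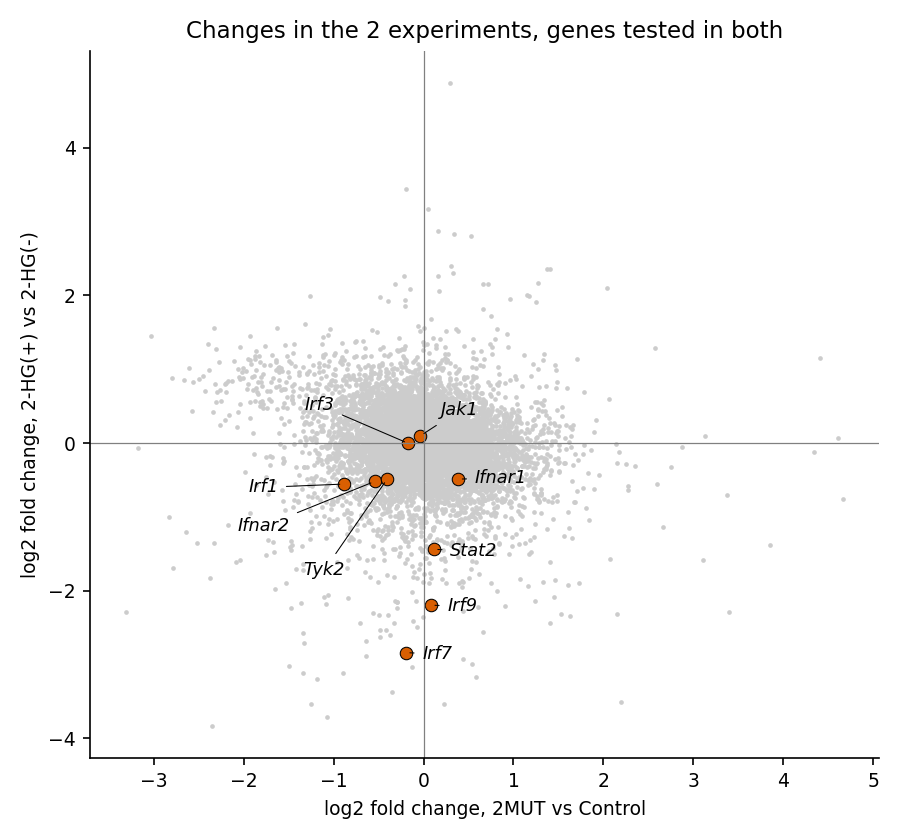
Log2 fold change in 2MUT against Control (horizontal axis) and in 2-HG(+) against 2-HG(-) (vertical axis) for the genes tested in both tables (grey points), with the 9 genes in orange. Irf7, Irf9 and Stat2 lie along the lower vertical axis, and Irf1 and Ifnar2 lie to the lower left, at -0.89 and -0.56 and at -0.54 and -0.52.

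For the 3 genes that passed in both comparisons, the genes with the most similar pattern were sought among 6720 others, by the root mean square difference of log2 levels over the 12 libraries after centring on the control groups. Irf1 was followed most closely by Shc1, an adaptor protein of growth factor receptors, at a difference of 0.071, then by Psme1, a subunit of the proteasome activator, at 0.098 and by Lhfp at 0.11. Psme1 changed by -0.88 in 2MUT and by -0.58 with 2-HG. For Ifnar1 the nearest were Zfp182, Nek6 and Golph3l, at 0.076, 0.08 and 0.093, and for Ifnar2 they were Amer1, Dram1 and Agrn, each at 0.11.

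The genes around the 9 in the pathway were counted from lists of known members. Of 21 interferon genes, the ligands, 1 was abundant enough to test in the first table and 0 of the 16 listed in the second. Their summed level was 1.92 to 6.55 RPM in Control and 1.75 to 4.27 RPM in 2MUT, and 0.54 to 0.735 RPM in 2-HG(-) and 0.198 to 0.522 RPM in 2-HG(+). No change is read from these sums. Ifnb1, the gene of interferon beta, named after its values were seen, was at 0, 0.142 and 0.273 RPM in Control and 0.464, 0.732 and 0.963 RPM in 2MUT, and at 0.381, 0.401 and 0.42 RPM in 2-HG(-) and 0.066, 0.06 and 0.065 RPM in 2-HG(+). The groups did not overlap in either table, in opposite directions, but the lower group was under the 3-read floor in both and the gene was under the filter, so it was not tested.

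Of 9 other receptor chains tested in 2MUT cells, 1 was higher, 1 was lower and 7 did not pass, with a median log2 fold change of -0.0081, which is near the shares of 16.5% and 17.3% over all genes. Il6ra, the receptor chain that binds interleukin 6, rose from 20 ± 3.88 to 48.4 ± 7.49 RPM (log2 fold change 1.24, adjusted p = 3.0e-04), and Il6st, the signalling chain it shares with related cytokines, fell from 677 ± 95.5 to 409.6 ± 24.2 RPM (-0.72, adjusted p = 5.0e-04). With 2-HG, 7 of the 9 were lower, against 16.7% of all genes, and 0 were higher (0 also unadjusted, by edgeR and by DESeq2), with a median of -0.74. Lifr, a receptor chain for leukaemia inhibitory factor, fell by 1.35 on the log2 scale (adjusted p = 7.6e-05), and Osmr, the oncostatin M receptor, fell by 0.97 (adjusted p = 1.2e-04). Ifngr1, a chain of the gamma interferon receptor, had a log2 fold change of 1.35 in 2MUT that did not pass (adjusted p = 0.22). It was at 74.6, 67.9 and 3.55 RPM in Control and 63.7, 68.2 and 86.7 RPM in 2MUT, and without the third Control library its log2 fold change was 0.02 (adjusted p = 0.93). Ifngr1 was named after its values were seen.

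Among the other JAK and STAT genes, 1 of 6 was higher in 2MUT, against 16.5% of all genes, and 0 were lower (0 also unadjusted, by edgeR and by DESeq2). This was Jak2, the kinase of the gamma interferon receptor, at 9.33 ± 1.23 and 14.9 ± 2.86 RPM (log2 fold change 0.62, adjusted p = 0.026). With 2-HG, 3 of 5 were lower, against 16.7% of all genes, and 0 higher (0 also unadjusted and by both count tools). Stat3, the factor that transmits interleukin 6 signals, fell by 0.82 (adjusted p = 1.5e-04), Stat6, that of interleukin 4, by 0.36 (adjusted p = 0.013), and Stat5a by 0.84 (adjusted p = 0.034), the last named after its values were seen. Of the other interferon regulatory factors, Irf5 was the 1 of 3 that fell in 2MUT, from 19.9 ± 2.81 to 10.4 ± 1.83 RPM (log2 fold change -0.88, adjusted p = 0.0037). With 2-HG, Irf2, a repressor that binds the same sites as Irf1, was the 1 of 2 that fell (-0.69, adjusted p = 6.3e-04). No gene of this list was higher in either comparison, and this count of 0 was the same unadjusted, by edgeR and by DESeq2. Beside shares of 17.3% and 16.7% lower over all genes, nothing is read from counts of 1 in lists this short.

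Among 13 feedback inhibitors and phosphatases tested in 2MUT, Pias1 (0.53, adjusted p = 0.0493) and Ptpn11 (0.33, adjusted p = 0.022) were higher and Irf2bp2 was lower (-0.57, adjusted p = 0.0013), and 10 did not pass, counts no larger than the shares of 16.5% and 17.3% over all genes. Pias1 did not pass without the third Control library (0.38, adjusted p = 0.15), by edgeR (adjusted p = 0.053) or by DESeq2 (adjusted p = 0.063), whereas Ptpn11 passed in all of these. That left 1 higher gene of the 13. With 2-HG, 3 of 12 were lower, against 16.7% of all genes, and 0 higher (0 also unadjusted and by both count tools), with a median of -0.18. Of these 3, Usp18 and Ptpn6 averaged under 1 RPM in 2-HG(+) and entered the test only through 2-HG(-), and 1 of the 10 that reached the filter in both groups was lower. Pias3, a STAT inhibitor, fell by 0.56 (adjusted p = 0.003). The others, named after their values were seen, were Ptpn6 at -0.51 (adjusted p = 0.0490) and Usp18, an inhibitor that acts at Ifnar2 and is itself induced by interferon. Usp18 was at 8.33, 9.29 and 5.94 RPM in 2-HG(-) and at 0.264, 0.481 and 0.98 RPM in 2-HG(+) (log2 fold change -2.50, adjusted p = 3.4e-05).

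Upstream of Irf3 and Irf7, 3 of 12 activators were higher and 3 lower in 2MUT, against 16.5% and 17.3% of all genes tested, and nothing particular to the list is read from this. Tank, an adaptor of the kinases that activate Irf3, rose by 0.68 (adjusted p = 0.0059) and Traf6 by 0.56 (adjusted p = 0.015), whereas Ticam1, the adaptor of Toll-like receptor 3, fell from 78.6 ± 10.4 to 35 ± 2.82 RPM (log2 fold change -1.14, adjusted p = 8.9e-05) and Tmem173, which encodes STING, fell by 0.49 (adjusted p = 0.0058). With 2-HG, 4 of 12 were lower and 0 higher (0 also unadjusted and by both count tools), with a median of -0.13, against 16.7% lower among all genes tested, and nothing particular to the list is read from this count either. The named ones were Myd88, an adaptor of most Toll-like receptors (-0.84, adjusted p = 0.03), and Ikbke, a kinase of Irf3 and Irf7 (-0.78, adjusted p = 0.0084).

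The list of genes known as targets of type I interferon signalling had the lowest median with 2-HG of the pathway lists. In 2MUT, 2 of the 20 tested were higher, 9 were lower and 9 did not pass, with a median of -0.32, against 16.5% higher and 17.3% lower among all genes tested, and the summed level of all 25 listed was 1188 to 1289 RPM in Control and 832 to 922 RPM in 2MUT. Mx1 and Ifi27l2a averaged under 1 RPM in 2MUT and entered the test only through Control, and of the 18 that reached the filter in both groups 2 were higher and 8 lower. Without the third Control library 8 of the list were lower. With 2-HG, all 20 tested were lower, with log2 fold changes of -3.72 to -0.43 and a median of -1.87, and 0 were higher (0 also unadjusted, by edgeR and by DESeq2). The summed level of the 23 listed was 840.4 to 878 RPM in 2-HG(-) and 223 to 236 RPM in 2-HG(+). Of all genes tested, 16.7% were lower. Of the 23 listed, 3 were under the filter, and 6 of the 20 averaged under 1 RPM in 2-HG(+) and so entered the test through their level in 2-HG(-), which leaves 14 that were lower and reached the filter in both groups. Ifi44 was at 99.98, 104 and 98.7 RPM in 2-HG(-) and at 8.53, 5.53 and 6.47 RPM in 2-HG(+) (log2 fold change -3.72, adjusted p = 5.6e-07), and Oasl2, of the oligoadenylate synthetase family, was at 72.3, 83.6 and 81.5 RPM and at 6.81, 5.41 and 5.55 RPM (-3.54, adjusted p = 3.8e-07). The same 2 genes were the named falls in 2MUT, Oasl2 from 97.8 ± 17 to 40.1 ± 1.65 RPM (-1.25, adjusted p = 6.6e-05) and Ifi44 by 1.08 (adjusted p = 8.1e-04), while Ifit2 (0.36, adjusted p = 0.032) and Ddx58, which encodes the RNA sensor RIG-I (0.34, adjusted p = 0.04), rose in 2MUT. Of 18 targets tested in both tables the change differed for 16, with the more positive change in 2MUT for 15, against 39.4% and 19.9% of all genes tested in both. The 18 included Mx2, Oas1a, Oas2, Ifi27l2a and Usp18, which entered the 2-HG test only through 2-HG(-). Mx2, Oas1a and Usp18 were among the 15, so these counts are not read against the shares over all genes. The 1 target with the more negative change in 2MUT, named after its values were seen, was Ifi27l2a. It was at -2.52 in 2MUT and -1.36 with 2-HG (adjusted p of the difference = 0.014). Its mean went from 9.62 to 0.903 RPM in the first table and from 2.01 to 0.171 RPM in the second. The added 1 RPM shrinks the second change more, both treated means were under the filter, and no order of the 2 falls is read from this difference.

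Genes known as targets of gamma interferon and Irf1 included the immunoproteasome and peptide transport genes. In 2MUT, 2 of 18 tested were higher, 8 lower and 8 did not pass, with a median of -0.41, against 16.5% higher and 17.3% lower among all genes tested. Gbp6, which did not pass, averaged under 1 RPM in Control. Without the third Control library 9 were lower, and Gbp4, at 67.2, 76.2 and 1.64 RPM in Control and 30.3, 29.6 and 34.1 RPM in 2MUT, went from a log2 fold change of 0.42 (adjusted p = 0.77) to -1.17 (adjusted p = 1.6e-05). Gbp4 was named after its values were seen. Psmb8, an immunoproteasome subunit, was at 12.9, 16.4 and 14.5 RPM in Control and at 1.08, 1.61 and 1.1 RPM in 2MUT, without overlap (log2 fold change -2.78, adjusted p = 4.1e-06). Tap1, a subunit of the peptide transporter of antigen presentation, fell by 1.35 (adjusted p = 1.5e-04), and B2m, the light chain of MHC class I, rose by 0.31 (adjusted p = 0.011). With 2-HG, 14 of 15 were lower and 0 higher (0 also unadjusted and by both count tools), with a median of -1.40, against 16.7% lower among all genes tested. The guanylate-binding protein genes Gbp7 and Gbp3 fell by 2.54 (adjusted p = 2.4e-06) and 2.15 (adjusted p = 1.6e-06). Of 15 tested in both tables the change differed for 8, with the more positive change in 2MUT for 7, against 39.4% and 19.9% of all genes tested in both. By the same test it was more positive in 2MUT for 6 of 9 other receptor chains and 3 of 5 other JAK and STAT genes. The same held for 1 of 2 other interferon regulatory factors, 3 of 11 feedback inhibitors and phosphatases, Usp18 among them, and 3 of 12 activators. It was more negative in 2MUT for 0, 0, 1, 1 and 1 genes of these lists, in the same order.

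**Figure D4:**
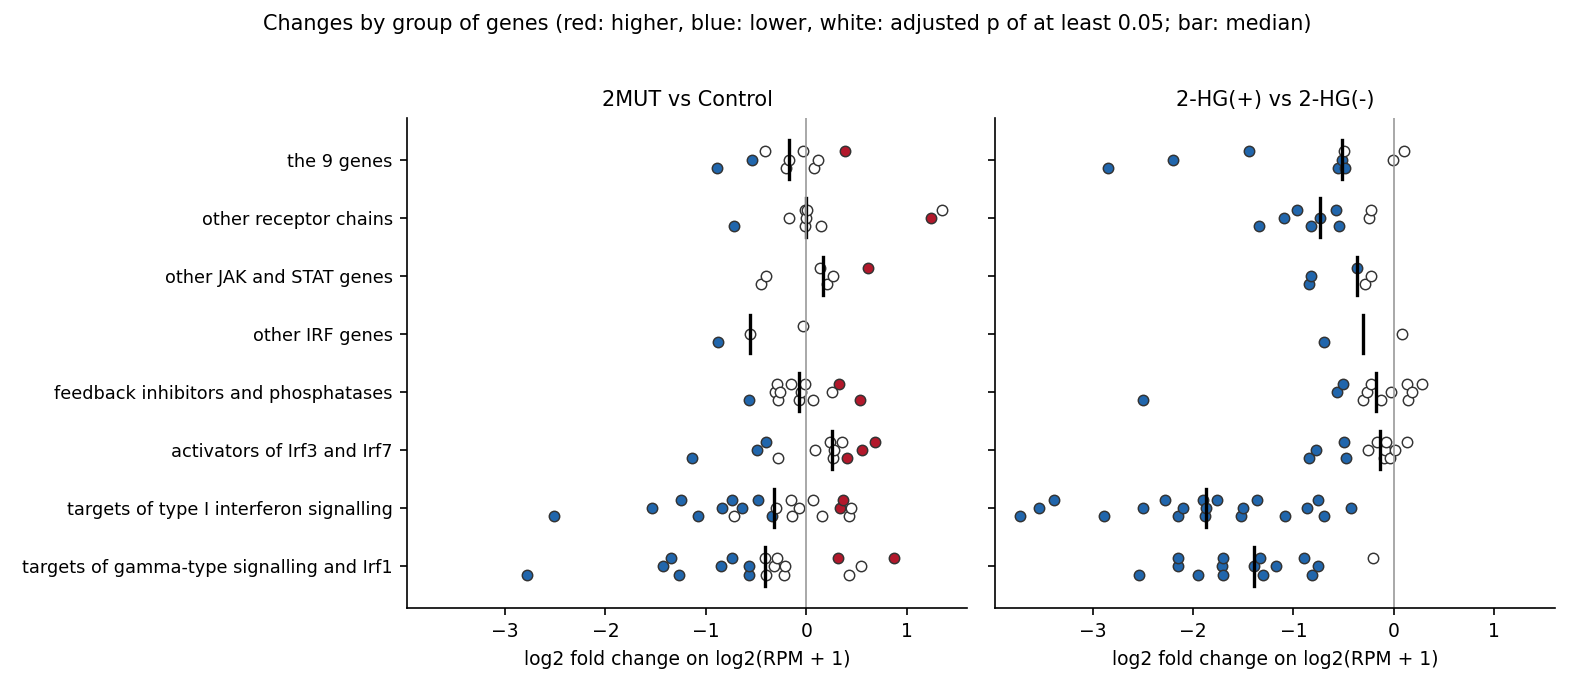
Log2 fold change on log2(RPM + 1) (horizontal axes) of the genes tested in each list, 2MUT against Control on the left and 2-HG(+) against 2-HG(-) on the right. Each point is a gene, red for higher, blue for lower and white for an adjusted p of at least 0.05, and the bar marks the list's median. The targets of type I interferon signalling have a median of -0.32 on the left and of -1.87 on the right, where all 20 points are blue.

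Levels of cell type markers also moved in both tables, and their part in the changes above was not tested. Of 9 fibroblast markers tested, 7 were lower and 1 higher in 2MUT (17.3% and 16.5% of all genes), with summed levels of all 11 listed of 15040 to 17010 RPM in Control and 13380 to 13820 RPM in 2MUT, and 5 were lower and 1 higher with 2-HG (16.7% and 16.1% of all genes), with summed levels of the 10 listed of 21650 to 23290 RPM in 2-HG(-) and 15260 to 16280 RPM in 2-HG(+). The summed level of the listed leukocyte and macrophage markers was 20.7 to 23.9 RPM in Control and 43.6 to 54.5 RPM in 2MUT, and 26.3 to 27.6 RPM in 2-HG(-) and 22.5 to 27 RPM in 2-HG(+). Of the 3 of these tested in 2MUT, Cd14 rose by 1.58 on the log2 scale, Cd68 was at 9.25 ± 2.87 and 6.62 ± 0.276 RPM and did not pass (log2 fold change -0.39, adjusted p = 0.19), and Lyz2, at 0.56 ± 0.361 and 2.62 ± 0.141 RPM, was under the filter in Control and entered the test only through 2MUT. With 2-HG, 1 of 3 was lower, Cd68, at 12.4 ± 1.25 and 8.46 ± 1.01 RPM (log2 fold change -0.51, adjusted p = 0.021). Ptprc, which marks all leukocytes, was at or below 0.142 RPM in every library of the first table and at 0 in every library of the second. Epithelial markers summed to at most 0.878 RPM and endothelial markers to at most 2.94 RPM in any library.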

How the data were processed

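RNA-seq values of 12 libraries were analysed. Groups follow the sample labels, and 0 columns of per-sample values were left unused. The authors prepared Ion AmpliSeq transcriptome libraries from total RNA, aligned the reads with TMAP to the AmpliSeq mouse transcriptome reference, used the AmpliSeqRNA plug-in to count reads on each gene. RPM values, reads on a gene per 1000000 counted, were deposited in 1 table per experiment. The genome build is not given in the sources used here. The labels name DMSO for 2-HG(-), whereas the study's text calls these cells non-treated. Within a tolerance of 0.05 reads, plus a small allowance that grew with depth, 100% of the values above 0 were whole reads. Depth and read counts could therefore be recovered.

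Genes averaging 1 RPM or more over the 6 libraries of a table were tested on log2(RPM + 1) with limma 3.58.1 in R 4.3.3 (eBayes with a trend), without covariates, in each table alone. Benjamini-Hochberg adjusted p-values under 0.05 passed, over all genes tested, and intervals are at 95%. The difference of changes is the contrast over the 12 libraries. edgeR 4.0.16 and DESeq2 1.42.0 on the recovered reads (3765 and 3546 genes past the threshold by edgeR in the first and second table), 0.1 RPM added, no filter, a filter at 10 RPM, median-of-ratios scaling, an unmoderated test, a replicate block and each library left out were alternatives. The leave-out of the third Control library for the pathway lists and for Ifngr1, Gbp4, Stat5b, Pias1 and Ptpn11, and the unadjusted counts, were added after seeing the data. The 9 genes and all lists were chosen with earlier results of these data known. All 9 are named, and of each list the up to 2 largest rises and 2 largest falls past the threshold with at least 10 RPM in the higher group. 1 gene of the pathway lists is not reported here. Simulated data with known changes were used to check the tests. Promoters were read with Python 3.11.15, and plots drawn with matplotlib 3.10.9. The study's own lists of changed genes were not used.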

Additional observations from a re-analysis of the deposited data

Results flagged for a closer look

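The change in 2MUT against Control differed from the change in 2-HG(+) against 2-HG(-), by the contrast over the 12 libraries, for 4 of the 9 genes, against 39.4% of all 9610 genes tested in the same way, so that the count itself is close to that over all genes. The differences on the log2 scale were 0.87 for Ifnar1, 1.55 for Stat2, 2.28 for Irf9 and 2.64 for Irf7, each with the more positive change in 2MUT. The 2 experiments have separate tables, and which of their properties the differences follow was not tested.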

How the results depend on the processing

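The 4 differences between the comparisons passed in every leave-one-out fit, with 0.1 RPM added, without a filter, with median-of-ratios scaling and under the replicate block, and were not tested with edgeR, DESeq2 or the unmoderated test. At a filter of 10 RPM Irf7 fell out with its low mean, and 3 remained. In 2MUT, 1 gene was higher and 2 to 3 lower over the leave-one-out fits, and 2755 to 3806 genes in all passed. With 2-HG, 0 were higher and 4 to 6 lower, and 2356 to 3259 genes passed. An unmoderated per-gene test left 1 lower gene in 2MUT and 3 with 2-HG, and 2244 and 2237 genes in all. Under it the adjusted p was 0.069 for Ifnar2 in 2MUT, and 0.058 for Ifnar1, 0.12 for Irf1 and 0.2 for Ifnar2 with 2-HG. The fall of Ifnar2 with 2-HG also missed the threshold with 0.1 RPM added (0.0506), without a filter (0.081), at a filter of 10 RPM (0.056) and with the replicate block (0.091). The adjusted p of Stat2, Irf9 and Irf7 with 2-HG stayed at or below 0.018, 0.0066 and 0.0024 under all alternatives that kept them. The libraries share only a replicate number. Deviations of same-numbered libraries correlated at 0.071, 0.029 and 0.032 in the first table and at -0.46, -0.16 and 0.057 in the second. A replicate block gave 3898 and 2503 genes, with 1 of the 9 higher and 2 lower in 2MUT, and 0 higher and 5 lower with 2-HG. Without the third Control library 2 further genes reversed, Gbp4 from 0.42 to -1.17 (adjusted p = 1.6e-05) and Stat5b from 0.26 to -0.17 (adjusted p = 0.41), and the lower genes went from 9 to 8 among the type I targets and from 8 to 9 among the gamma and Irf1 targets. Median-of-ratios scaling moved the median of all genes from 0.0081 to 0.011 and from -0.021 to -0.0035. Depth limits genes near the 3-read floor, such as the ligand genes.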
